A study of Arabidopsis thaliana with 12 samples.

Results

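The comparison described here is that of H3K27me3 in clf-29 and in Col at the genes that carry the mark in either genotype. A gene was taken as marked where its ChIP signal per 1000000 reads was 2 or more times the input in both replicates of Col or in both replicates of clf-29, and 7371 of the 37899 annotated genes on chromosomes 1 to 5 met this rule. Of these, 5453 were marked in both genotypes, 1128 in Col only and 790 in clf-29 only. The plants were 14-day-old seedlings of Arabidopsis thaliana. Col is the wild type, and clf-29 is a T-DNA insertion allele of CURLY LEAF (CLF) in the Col background. The study also holds brm-1, a T-DNA allele of BRAHMA in the same background, and the double mutant brm-1 clf-29, which are used here only to look at the loss of CLF a second time. Each genotype has 2 ChIP libraries, described as biological replicates, and 1 input library, which is the chromatin sequenced without immunoprecipitation. A sample is a pool of whole seedlings, so a change of the mark in all cells and a change in the share of cells that carry it cannot be told apart.

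H3K27me3 is the mark of silent genes that Polycomb Repressive Complex 2 (PRC2) places on the histone H3 tail. CLF and SWINGER (SWN) are the catalytic subunits of PRC2 that act in the plant body, and MEDEA (MEA) is the catalytic subunit of the endosperm. The mark is known to cover genes of flowering, of meristems, of seeds and of many small gene families in long stretches of chromatin. Plants without CLF have curled leaves and flower early, and AGAMOUS (AG) is the classical gene that becomes active in their leaves.

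The sequences that carry part of the finding are those of mature miRNAs made by several loci, since loci with the same mature miRNA kept or lost the mark. They were read from the RefSeq TAIR10.1 genome on the strand of the gene and are written 5′ to 3′ as DNA, with the seed (bases 2 to 8) in capitals. The first 3 share one seed, and miR157d, which starts 1 base later, has the same bases in another frame.
miR157a-5p: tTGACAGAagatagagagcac
miR157b-5p: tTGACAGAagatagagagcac
miR157c-5p: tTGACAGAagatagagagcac
miR157d: tGACAGAAgatagagagcac
miR169i: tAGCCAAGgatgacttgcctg
miR169k: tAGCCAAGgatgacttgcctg
miR169m: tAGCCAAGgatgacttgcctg
miR845a: cGGCTCTGataccaattgatg
miR845b: tCGCTCTGataccaaattgatg
The miR157 sequences lie at chr1:24913276-24913296 on the minus strand, chr1:24921104-24921124 on the plus strand, chr3:6244673-6244693 on the minus strand and chr1:18026989-18027008 on the minus strand. Those of miR169i, miR169k and miR169m lie on the minus strand at chr3:9872106-9872126, chr3:9875675-9875695 and chr3:9878318-9878338. The miR845 sequences lie on the minus strand at chr4:12217457-12217477 for miR845a and at chr4:12214086-12214107 for miR845b. MIR157 miRNAs pair with SPL transcripts, which promote the adult phase and flowering, and MIR169 miRNAs pair with transcripts of NF-YA subunits.

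After removal of reads at an occupied position and strand, the Col libraries held 3654258 and 3019610 reads and the clf-29 libraries 2597268 and 2112103. Reads per gene were scaled so that the median marked gene did not differ between libraries, and values are given as scaled RPM, the scaled reads per 1000000 reads. The scaling divides out any overall gain or loss of the mark, so each change is relative to the median marked gene. The clf-29 libraries had less background: unmarked genes stood at a median of 0.394 and 0.371 times the input in clf-29 and at 0.598 and 0.599 times in Col, and the merged domains held 80.6% and 81.7% of the clf-29 reads against 63.6% and 63.3% of the Col reads. How far this difference takes part in the calls was tested only by subtracting the input, which is given beside the counts below. The CLF gene itself was not marked, with 19.4 and 20.2 scaled RPM in Col and 6.96 and 4.89 in clf-29, all below the input. Its reads say nothing of its transcript, so they do not check the clf-29 label.

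Relative to the median marked gene, the mark was lower in clf-29 at many genes and higher at few. Of the 7371 marked genes, 1060 were lower in clf-29 by more than 2-fold at an adjusted p under 0.05 (limma, Benjamini-Hochberg adjustment over all marked genes), which is 14.4% of the genes tested. Only 56 genes (0.76%) were higher by the same rule, and 5184 (70.3%) were kept, which means that the 95% interval of their change lay within 2-fold in either direction. The other 1071 genes fell into none of these classes. The median change was 0.02 on the log2 scale, and the 5th and 95th percentiles were −1.65 and 0.81, so the distribution had a long tail on the side of loss only. The spread of replicates was small beside this, and at an adjusted p under 0.05 without the fold limit 2438 genes (33.1%) were lower and 2332 (31.6%) higher. Both Col libraries lay above both clf-29 libraries at 41% of the genes and below them at 40.7%, so libraries that do not overlap are common and are no mark of a gene by themselves.

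**Figure D1:**
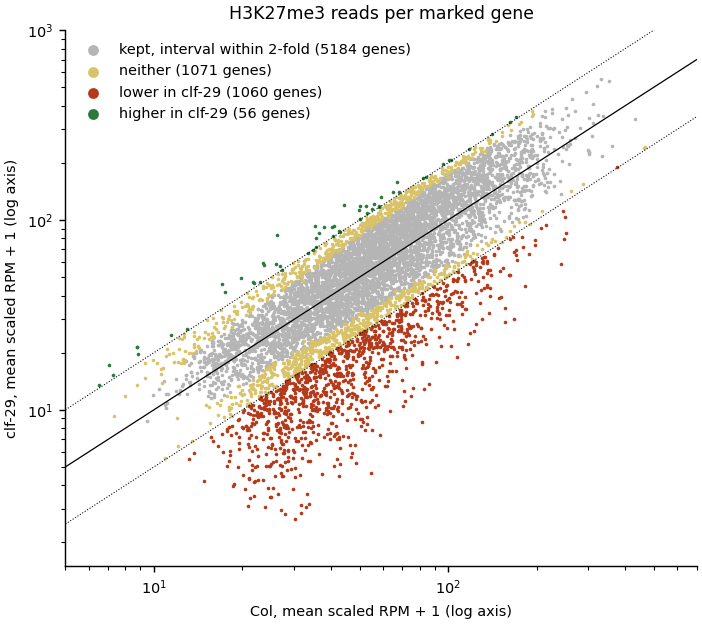
Mean scaled RPM + 1 of the 7371 marked genes in Col (horizontal, log axis) and in clf-29 (vertical, log axis), 1 point a gene, coloured by call, with a solid line at equal values and dotted lines at a 2-fold difference. The 1060 lower genes spread far below the lower line, while the 56 higher genes lie close to the upper line.

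The balance of falls and rises depended on the scaling. Reads per 1000000 without scaling moved the median marked gene to 0.50 on the log2 scale and gave 501 lower and 1421 higher genes, and a scaling on the unmarked genes moved it to 1.03 and gave 215 lower and 3807 higher. All 215 genes lower under that scaling were among the 1060, and all 56 higher genes were higher under each of the 3 scalings. Each scaling moves all genes by nearly the same amount, here upward. This nesting thus follows from the shift and is no separate check of the calls. By the same shift, the median unmarked gene was itself about 2-fold lower in clf-29 under the scaling on marked genes. The limit for a lower call thus lay near the change of unmarked genes. Subtracting the input kept all 1060 falls and gave 1399 lower genes in all, and it kept 44 of the 56 rises among 225.

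The genes called lower came closer to the input, but their median stayed above that of unmarked genes. The median lower gene went from 41.2 and 41.1 scaled RPM in the Col replicates to 13.3 and 13.4 in the clf-29 replicates, and from 3.31 to 1.53 times the input. Unmarked genes stood at a median of 0.394 and 0.371 times the input in the clf-29 libraries. In clf-29, 680 of the 1060 were under 2 times the input in both libraries, and 179 were below the input in both. Another 234 were at 2 or more times the input in both. These counts are partly set by the rule of entry, since 826 of the 1060 were marked in Col only and thus did not meet the rule in clf-29. Lower genes were spread over the 5 chromosomes, with 12.8% to 15.8% of the marked genes of each.

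The 12 largest falls, limited to genes with 100 or more reads in every Col library and to 1 gene per domain, ranged from −3.57 to −2.75 on the log2 scale. They held 1 miRNA gene, 3 noncoding RNA genes, 1 pseudogene and 7 protein-coding genes, several of them uncharacterized. MIR157b, on chromosome 1 at 24921086 to 24921217, stood at 51.9 and 55.8 scaled RPM in Col and at 3.17 and 4.07 in clf-29. Both clf-29 values lay far below both Col values, an 11.9-fold fall (log2 change −3.57, SE 0.34, adjusted p = 1.45e-07, limma), and the ChIP over input went from 4.99 to 0.464.

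AT4G23380, annotated as a NEP-interacting protein with a DUF239 domain, went from 83.6 and 77.5 scaled RPM to 7.91 and 7.33 (log2 change −3.24, SE 0.16, adjusted p = 3.18e-10, limma). AT4G11400, annotated with ARID, ELM2 and Myb-like DNA-binding domains, went from 53.8 and 41.5 to 4.43 and 4.07 (−3.20, SE 0.22). AT5G52150, a RING/U-box protein, went from 49.6 and 42.3 to 6.02 and 3.26. In each of these 3 genes the clf-29 libraries were below the input, where the Col libraries had been at 4.55, 2.49 and 4.27 times the input. RLP37, a receptor-like protein of the family that includes immune receptors, went from 48.0 and 44.3 to 6.65 and 3.26 (−3.04, SE 0.26). AT1G28306, of the self-incompatibility protein S1 family of small secreted proteins, went from 56.1 and 59.7 to 5.07 and 7.74 (−3.02, SE 0.25). The other 6, AT5G38005, AT3G28243, AT1G08773, AT5G24205, AT5G38230 and AT1G34440, had changes of −3.08 to −2.75 and are annotated as noncoding, as a pseudogene or as uncharacterized.

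**Figure D2:**
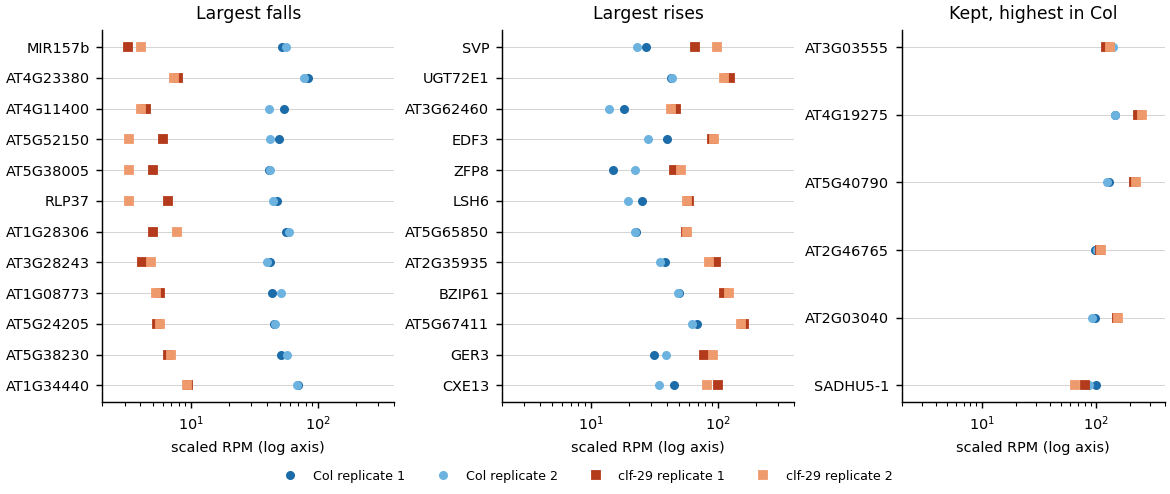
Scaled RPM (log axis) of the 12 largest falls, the 12 largest rises and the 6 kept genes of highest level per kb in Col, with 1 point a library, circles for Col and squares for clf-29. Col and clf-29 do not overlap in any of the falls or rises, as the rule for naming them asked, and the falls are wider than the rises.

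The falls lay in long stretches of marked chromatin. The 1060 lower genes sat in 658 domains, of which 92 held 3 or more of them, and 7 lay in none. Domains are the merged regions of enrichment found in both replicates of Col or of clf-29. The domain of the median lower gene was 8800 bp wide, against 5000 bp for kept genes and 3200 bp for higher genes. Of the lower genes, 672 shared their domain with a kept gene, in 392 domains. The same counts over all marked genes were not made. As 70.3% of marked genes were kept and the domains of lower genes were wide, the counts are not read as a trait of lower genes.

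The domain of AT4G23380 (chr4:12197601-12219800) held 12 genes, and all 9 that were marked fell. It spans 5 neighbouring genes annotated as carboxyl-terminal peptidases, AT4G23380 and its relative AT4G23390, and MIR845a and MIR845b, whose miRNAs are printed above and pair with retrotransposon sequences in pollen. MIR845a went from 56.1 and 43.9 scaled RPM to 4.43 and 11.4 (−2.62, SE 0.31). The log2 change at MIR845a was −2.02 without clf-29 replicate 1 and −3.21 without clf-29 replicate 2. MIR845b went from 53.2 and 43.5 to 6.65 and 10.6 (−2.38, SE 0.22). The called width of this domain was 21200 and 22200 bp in the Col replicates and 4400 and 6600 bp in clf-29.

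The domain of MIR157b (chr1:24906201-24927000) also holds MIR157a, which fell less, from 63.9 and 58.9 scaled RPM to 17.1 and 24.0 (−1.55, SE 0.20, adjusted p = 2.81e-06, limma), and stayed at 2.05 times the input. Of the 6 genes there, 4 fell. SWEET6, a sugar transporter at one end, was kept at 39.9 and 39.5 against 24.7 and 28.1, and AT1G66800 at the other end changed by −0.88 and was in no class. The changes at both ends were thus smaller than that of MIR157b between them, and the called width went from 20000 and 20400 bp to 5800 and 8400 bp.

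The other MIR157 loci were not called. MIR157c, which makes the same miR157-5p, was kept at 30.5 and 22.9 in Col and 20.9 and 26.9 in clf-29, with overlapping values. MIR157d stood at 76.2 and 75.1 in Col and at 120 and 178 in clf-29, a log2 change of 0.94 that missed the 2-fold limit. The log2 change at MIR157d was 1.22 without clf-29 replicate 1, and it was then called higher. Of the 3 loci for the same mature sequence, a and b were thus called lower and c was kept.

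The 6 genes MIR169i to MIR169n lie in 1 domain (chr3:9871001-9885400) and share the mature sequence printed above for 3 of them. MIR169k went from 60.9 and 66.4 scaled RPM in Col to 21.2 and 26.5 in clf-29 (−1.39, SE 0.15, adjusted p = 5.22e-07, limma). MIR169l went from 55.8 and 56.5 to 16.5 and 25.2, and MIR169j from 31.4 and 35.2 to 12.7 and 19.95. These 3 were called lower, and MIR169i changed by −0.83 and was in no class. The log2 change at MIR169j was −0.71 without clf-29 replicate 1 and −0.95 without Col replicate 2, and its call was then lost. MIR169m stood at 49.9 and 47.8 in Col and 45.6 and 52.9 in clf-29, and MIR169n at 48.3 and 49.0 against 51.6 and 57.8, and both were kept. The genes form 3 close pairs whose counting windows of 1000 bp overlap by 619 to 632 bp, so the members of a pair are not independent, but the pairs i and j, k and l, and m and n share no reads. The called width of the domain changed little, from 14200 and 14400 bp to 11800 and 12600 bp.

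**Figure D3:**
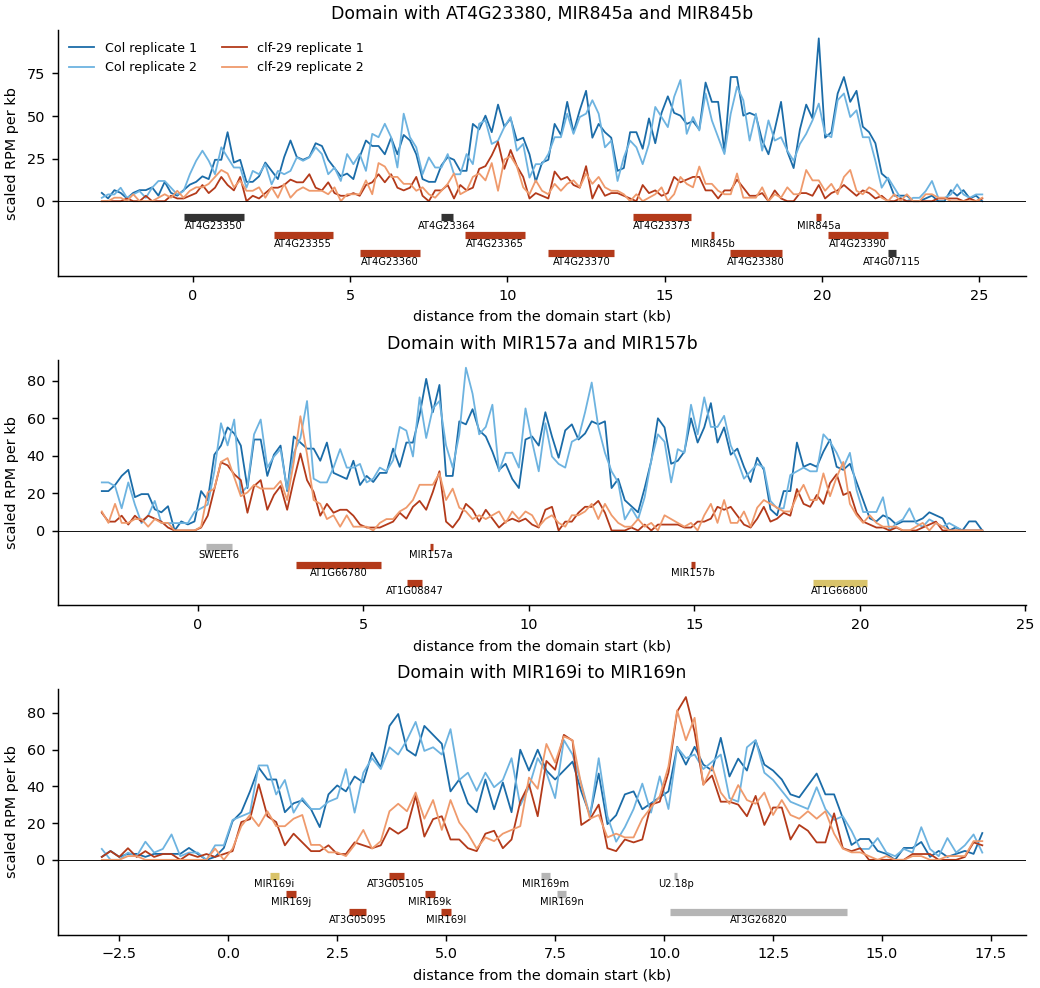
Scaled RPM per kb in 200 bp steps against the distance from the domain start, for the 2 Col and 2 clf-29 libraries over 3 domains, with genes drawn to scale below and coloured by call (red lower, grey kept, yellow neither, black not marked). The clf-29 lines lie low over the whole domain of AT4G23380 and in the middle of the domain of MIR157b, and return to the Col lines at MIR169m and MIR169n.

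Genes that make no protein lost the mark more often than others. Of 1411 marked genes that are not protein coding, 355 (25.2%) were lower and 3 were higher, with a median change of −0.32, against 705 lower and 53 higher of 5960 protein-coding genes, with a median of 0.07. The lower genes were 176 of 712 long noncoding RNAs, 25 of 104 miRNA genes and 46 of 151 pseudogenes. These genes are short, with a median of 389 bp against 1559.5 bp for protein-coding genes. Over all kinds of gene together, 26.1% of those under 500 bp were lower, 10.5% of those of 1000 to 2000 bp and 17.6% of those over 4000 bp, so the share did not simply fall with length. Genes under 1000 bp were counted in a window of 1000 bp, which also takes in what lies beside them. The median ChIP over input in Col was 3.43 for genes that make no protein and 3.83 for protein-coding genes. The parts of gene length and of mark level in the difference were not tested.

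Other miRNA genes that fell were MIR3932b, from 34.0 and 30.4 scaled RPM to 3.17 and 2.04 (−3.22, SE 0.24), and MIR397a, from 21.4 and 19.8 to 6.02 and 4.07 (−1.85, SE 0.25), whose miRNA pairs with laccase transcripts. MIR395d and MIR395e, whose miRNA acts in sulfate starvation, fell by 1.94 and 1.32. None of the 104 rose by the 2-fold rule. Without scaling 13 were lower and 12 higher, and with scaling on the unmarked genes 7 and 42, but these scalings move all genes. The median of the miRNA genes was below that of all marked genes under each, at −0.25 against 0.02, 0.24 against 0.50 and 0.77 against 1.03. Since each scaling moves all genes by nearly the same amount, this order could not change and is no separate check. The highest estimate after MIR157d was that of MIR166a, whose miRNA controls HD-ZIP III genes of leaf polarity, with 23.7 and 23.7 in Col and 39.3 and 49.7 in clf-29 (0.87, SE 0.14). The log2 change at MIR166a was 1.03 without clf-29 replicate 1, past the limit.

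In 3 families of receptors and small secreted proteins the share of lower genes was above that of all marked genes. Of 36 marked receptor-like kinase genes, which carry signals at the cell surface, 16 were lower and none higher, with a median change of −0.80. Of 65 marked genes for defensin-like and other cysteine-rich peptides, 28 were lower and none higher (median −0.78), and of 25 genes for S1-type self-incompatibility proteins, 11 were lower and none higher (median −0.70). These shares, 44.4%, 43.1% and 44.0%, can be read beside the 14.4% of all marked genes. F-box proteins, the substrate receptors of ubiquitin ligases, were by far the largest family with 356 marked genes, and 63 (17.7%) were lower and 2 higher. Other families of the same kind did not stand apart, with 6 of 47 NBS-LRR disease resistance genes lower (12.8%, median −0.05) and 9 of 65 lipid transfer protein genes (13.8%, median 0.09).

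Most transcription factor genes were kept, as were most other protein-coding genes. In the 9 families searched, 22 of 473 marked genes were lower (4.65%), 4 were higher (0.846%) and 393 (83.1%) were kept. Of 5487 other protein-coding genes, which include regulators of other families, 683 were lower (12.4%), 49 were higher (0.893%) and 4002 (72.9%) were kept. The median ChIP over input in Col was 4.57 in the 9 families and 3.77 in the other genes. The difference in shares, and the part of mark level in it, were not tested. Of 63 AP2/ERF genes none was lower and 1 was higher (median 0.33), of 82 homeobox genes 2 were lower and 73 kept (0.12), and of 36 WRKY genes 1 was lower and 34 were kept (0.04). MADS box genes had 7 lower and 2 higher of 59. Of 135 genes for pectin enzymes of the cell wall 107 (79.3%) were kept and 7 lower, and of 117 cytochrome P450 genes 87 (74.4%) were kept and 9 lower. The families are annotation words, not fixed lists, and members of tandem arrays share domains, so genes of a family are not independent.

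**Figure D4:**
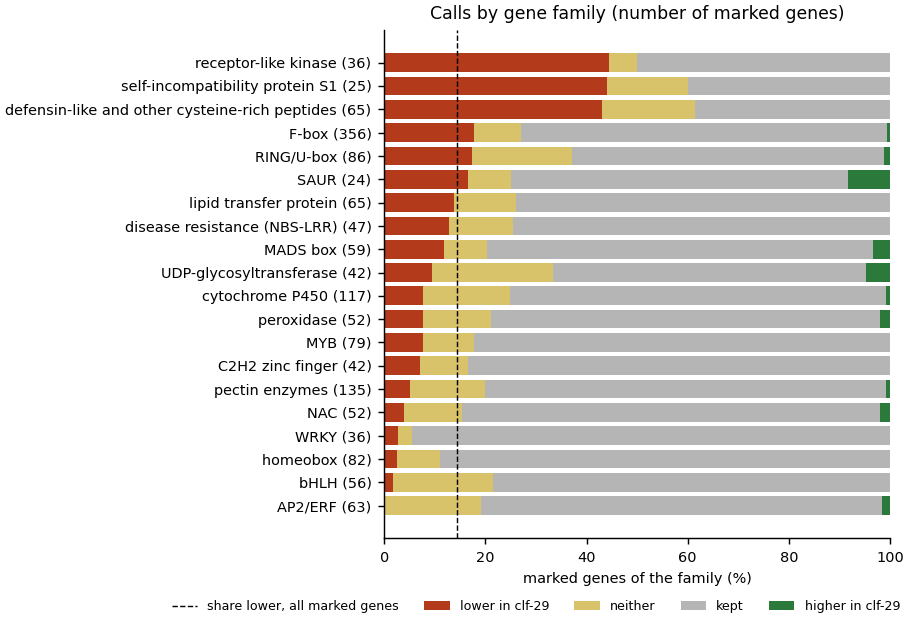
Share of the marked genes of each family (%) that were lower in clf-29 (red), in no class (yellow), kept (grey) and higher (green), with the number of marked genes in brackets, for families of 20 or more marked genes, with a dashed line at the 14.4% lower among all marked genes. Receptor-like kinases, S1-type proteins and cysteine-rich peptides exceed 40%, and AP2/ERF genes have none.

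Under the other scalings the medians of these families moved with all genes. Without scaling the receptor-like kinases had 7 lower and 1 higher, the cysteine-rich peptides 17 lower and 6 higher, and the S1-type proteins 8 lower and none higher. With scaling on the unmarked genes the median of the receptor-like kinases became 0.22 and that of the cysteine-rich peptides 0.21, against 1.03 for all marked genes. This scaling shifts every gene by nearly the same amount, so the change of sign is that of the scaling. For the same reason both medians had to remain below that of all marked genes, which is no separate check.

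The genes of floral organ and meristem identity were all marked, and 12 of the 14 were kept, with a median change of −0.01. The 2 that were lower are 14.3% of the list, the same share as over all marked genes (14.4%). AG, which specifies stamens and carpels, stood at 387 and 363 scaled RPM in Col and at 161 and 217 in clf-29, which are separate. Its log2 change was −1.002 (SE 0.14, adjusted p = 6.54e-06, limma), so it only just passed the 2-fold limit. The call was lost without clf-29 replicate 1 (−0.79) and without Col replicate 1 (−0.97), and with scaling on the unmarked genes the change was 0.03. SEP4, a cofactor of the organ identity proteins, fell from 106 and 100 to 44.3 and 51.3 (−1.10, SE 0.12), and to −0.99 without that replicate. The called width of the AG domain went from 10000 and 10200 bp to 6000 bp in each clf-29 library.

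The other floral genes moved both ways around the median. SEP3 stood at 207 and 206 in Col and at 138 and 174 in clf-29 (−0.42), and SHP2, a close relative of AG, at 159 and 161 against 93.1 and 114 (−0.63). AP1, which starts the floral meristem, stood at 330 and 330 against 493 and 614 (0.74), and LFY, its upstream regulator, at 129 and 130 against 213 and 241 (0.80). These 4 were kept by the 2-fold interval, although each was separate between the genotypes.

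Of the 21 flowering time genes, 16 were marked, none was called lower, 1 was higher and 13 were kept, with a median change of −0.40. Over all marked genes 14.4% were lower, 0.76% higher and 70.3% kept, with a median of 0.02, and a list of 16 genes is small for such shares. FLC, the repressor of flowering that vernalization silences, went from 468 and 455 in Col to 197 and 281 in clf-29, a change of −0.97 (SE 0.16) in no class. The log2 change at FLC was −1.23 without clf-29 replicate 2, and it was then called lower, as it was with the input subtracted (−1.22). FT, which encodes the mobile signal of flowering, stood at 114 and 104 against 62.4 and 80.6 (−0.61) and was kept. SOC1, MAF4 and AGL17 changed by −0.44, −0.68 and −0.59 and were kept. SNZ, an AP2-type repressor, stood at 67.1 and 73.9 against 116 and 149 (0.89), and the log2 change at SNZ was 1.07 without clf-29 replicate 1, past the limit. Most of the list thus lay between the median and the 2-fold limit, with lower values in clf-29 for 12 of 16. Over all marked genes this held for 3610 of 7371, and the difference was not tested.

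Most regulators of the shoot, the embryo and the root were kept, as were 70.3% of all marked genes. Of 14 shoot meristem, boundary and polarity genes 13 were kept and none was called, with a median of 0.04. STM, which maintains the shoot meristem, stood at 248 and 248 in Col and 274 and 322 in clf-29 (0.26). WUS, which specifies its stem cells, stood at 144 and 145 against 207 and 223 (0.57), and CUC2, which sets organ boundaries, at 173 and 176 against 290 and 296 (0.74). KNAT2, a relative of STM, was the one not kept, at 282 and 293 against 160 and 150 (−0.89).

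Of 11 embryo and root regulators 10 were marked and 9 were kept, with a median of 0.22. ABI3, which controls seed maturation, stood at 288 and 300 in Col and 455 and 488 in clf-29 (0.68), LEC1 at 54.8 and 60.5 against 70.0 and 84.3 (0.41), and LEC2 at 178 and 169 against 126 and 129 (−0.44). WOX5, which marks the root stem cell niche, stood at 55.1 and 58.9 against 94.7 and 107 (0.81) and was in no class. No gene of these lists was called, where 14.4% of all marked genes were lower and 0.76% higher, and lists of 14 and 10 genes are small for such shares.

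The seed storage genes stood above the median marked gene. All 11 marked members of 12 had positive changes, with a median of 0.86 against 0.02 of all marked genes, but 1 alone passed the 2-fold rule. That was CRA1, which encodes a cruciferin, with 139 and 142 in Col and 289 and 279 in clf-29 (1.01, SE 0.08, adjusted p = 1.51e-08, limma). CRU3, another cruciferin, stood at 202 and 181 against 358 and 350 (0.89), and SESA1, a 2S albumin, at 76.8 and 71.2 against 147 and 147 (0.98). The log2 change at SESA1 was 1.03 without Col replicate 1, past the limit. The call of CRA1 was lost in 9 of the alternatives, with values of 0.87 to 0.99, among them those without Col replicate 1 (0.99) and without clf-29 replicate 1 (0.98). SESA1 to SESA4 lie in 1 domain and are not independent. Under scaling by the sum of reads on the marked genes no member was called, with a median of 0.80. The list had a median ChIP over input of 7.13 in Col, against 3.75 for all marked genes. The group of marked genes with the highest mean level had a median change of 0.48. The part of level in the changes of this list was not tested.

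Of 19 genes of auxin synthesis and transport 14 were marked and 13 kept, with a median of 0.28, and 1 of 14 was lower (7.14%, against 14.4% of all marked genes). PIN8, an auxin carrier of the endoplasmic reticulum in pollen, was the one that fell, from 77.5 and 68.8 to 26.6 and 26.5 (−1.43, SE 0.13, adjusted p = 1.27e-07, limma). YUC1, an auxin synthesis enzyme, stood at 102 and 113 against 164 and 157 (0.58) and was kept. Of 11 Polycomb and H3K27 demethylase genes, MEA and FIS2 were marked and kept, at −0.26 and −0.13. SWN was below the input in every library, as were the 4 control genes ACT2, ACT7, TUB2 and UBQ10.

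The rises were smaller than the falls and fell on single genes. The 56 higher genes sat in 51 domains, 53 of them code for proteins, and their median went from 39.9 and 37.8 scaled RPM in Col to 91.5 and 85.9 in clf-29 and from 3.02 to 10.8 times the input. Of the 56, 17 were marked in clf-29 only and thus entered through the genotype where they are high, and in the same way 826 of the 1060 falls were marked in Col only. The 12 largest rises, by the same rule with 100 or more reads in every clf-29 library, ranged from 1.19 to 1.64.

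SVP, a MADS box repressor of flowering, had the largest rise (chromosome 2, 9579647 to 9583901). It stood at 27.2 and 23.3 scaled RPM in Col and at 66.2 and 98.1 in clf-29 (log2 change 1.64, SE 0.15, adjusted p = 8.67e-08, limma), and at 0.531 times the input in Col and 2.54 times in clf-29. No region was called over it in either Col library, against 2800 and 3400 bp in clf-29, so it is one of those marked in clf-29 only. UGT72E1, a glycosyltransferase of lignin precursors, went from 42.8 and 43.5 to 126 and 113 (1.45, SE 0.11). EDF3, an AP2/B3-type factor of the ethylene response, went from 40.2 and 28.5 to 89.6 and 94.5 (1.42, SE 0.14).

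Some of the other rises were at regulators. ZFP8, a C2H2 zinc finger protein of trichome formation, went from 14.9 and 22.5 to 45.3 and 51.7 (1.35), and LSH6, a member of the LIGHT-DEPENDENT SHORT HYPOCOTYLS family of organ boundaries, from 25.3 and 19.8 to 59.8 and 57.0 (1.35). BZIP61, a basic leucine zipper factor, went from 49.3 and 49.0 to 112 and 123 (1.24), and AT5G67411, of the GRAS family, from 68.7 and 63.3 to 160 and 154 (1.24). With SVP and EDF3, 6 of these 12 have the annotation of a transcription regulator. Over all marked genes, 0.846% of the 9 families searched and 0.893% of other protein-coding genes were higher. Those families have no basic leucine zipper, GRAS or LSH genes, and none of their C2H2 zinc finger genes was higher. ZFP8, LSH6, BZIP61 and AT5G67411 were thus counted among the other genes. These shares therefore do not compare all regulators with other genes. The other 5, AT3G62460, AT5G65850, AT2G35935, GER3 and CXE13, rose by 1.19 to 1.44, and CXE13 stood at 0.99 without Col replicate 2, under the limit.

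The 6 kept genes with the highest level per kb in Col were AT3G03555, AT4G19275, AT5G40790, AT2G46765, AT2G03040 and SADHU5-1. AT4G19275, a galactose oxidase/kelch repeat protein, stood at 146 and 147 in Col and 233 and 251 in clf-29 (0.72), and AT5G40790 at 131 and 124 against 217 and 226 (0.79). AT2G46765 stood at 98.5 and 102 against 110 and 112 (0.14), and SADHU5-1, a retroposon, at 101 and 87.0 against 80.1 and 66.0 (−0.36). AT2G03040 changed by 0.70 and AT3G03555 by −0.04, with ChIP over input of only 1.68 in Col for the latter.

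Along the genes, the loss ran over the whole body and both sides. Over 329 lower protein-coding genes of 1500 bp or more, the clf-29 signal was 0.409 of the Col signal in the first 25% of the gene and 0.330 in the last 25%. It was 0.385 in the 1 kb upstream and 0.370 in the 1 kb downstream. Over 2455 kept genes the ratio was 1.20 in the first 25%, 1.01 in the last 25%, 0.820 upstream and 0.763 downstream. Kept genes thus had relatively more mark in the body and less around it in clf-29, and the part of the lower background of the clf-29 libraries in this was not tested. Over 18 higher genes the ratio was 2.08 in the first 25%, 2.28 in the 25% past the middle and 1.25 downstream.

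Marked domains were narrower in clf-29, mainly the wide ones. At equal numbers of reads, the enriched regions covered 21.2 and 21.0 Mb in Col and 17.2 and 17.6 Mb in clf-29, although clf-29 had more of them, 6500 and 6237 against 5836 and 5787. In the 4500 domains called in all 4 libraries the median called width was 3200 bp in each Col library and 2600 and 2800 bp in clf-29. Domains under 1500 bp went from 1000 bp in each Col library to 1200 bp in each clf-29 library, while domains over 6000 bp went from 9200 bp to 7400 and 7800 bp. Of the 809 domains over 6000 bp, 66.4% were narrower in both clf-29 libraries than in both Col libraries and 4.08% were wider. The width classes use the mean of the same 4 libraries, and the part of the lower background of clf-29 in the called widths was not tested.

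**Figure D5:**
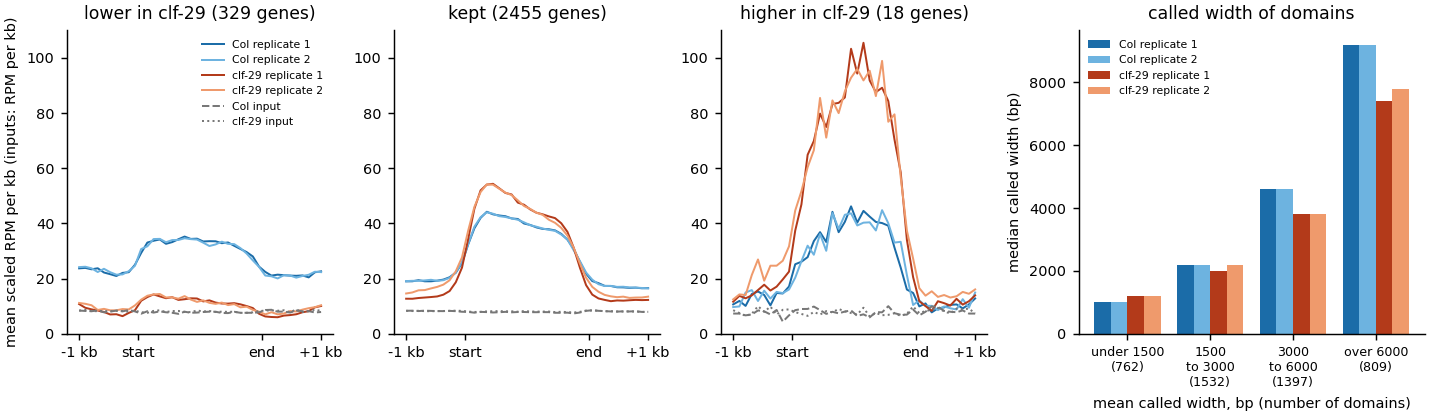
Left, mean scaled RPM per kb along 329 lower, 2455 kept and 18 higher protein-coding genes of 1500 bp or more, from 1 kb before the start to 1 kb after the end, for 2 Col and 2 clf-29 libraries, with the inputs in RPM per kb in grey. Right, median called width (bp) of the 4500 domains called in all 4 libraries by mean width, with the number of domains in brackets: clf-29 is above Col under 1500 bp and below it over 3000 bp.

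Single domains passed the test of width less often. Of 5654 merged domains 391 (6.92%) were narrower and 301 (5.32%) wider by more than 2-fold (limma, adjusted p under 0.05), but 259 of the narrower had no region in clf-29 and 289 of the wider none in Col. Of the 4500 called in all 4 libraries, 79 (1.76%) were narrower and 9 (0.2%) wider. The largest loss among them in base pairs was a domain at chr5:8828201-8852600 over the lower genes AT5G25410, AT5G25415 and AT5G25420 and the kept gene AT5G25425, with 22400 and 23400 bp in Col and 4600 and 4000 bp in clf-29. The largest gain in base pairs was a domain at chr3:2346401-2351200 over AT3G07350, a higher gene, with 1600 and 1800 bp in Col and 4800 bp in each clf-29 library.

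Within the merged domains a smaller share of the reads lay near the edges in clf-29. The bounds of these domains come from the calls in the same libraries, and the Col calls covered more of the genome. Outer parts called only in Col lower the clf-29 share by construction, so this is no separate sign of a changed shape. The part of the bounds in it was not tested. In 3606 domains with at least 100 reads in each library, the outer 25% on both sides together held a median of 41.8% and 41.9% of the reads in Col and of 38.5% and 39.0% in clf-29. After subtraction of the input scaled to the unmarked genes these were 39.7% and 39.9% against 37.2% and 37.8%, a smaller difference in the same direction. The 1 kb on each side held 5.76 and 5.75 reads per 100 reads inside in Col and 2.75 and 2.87 in clf-29, and after the subtraction all 4 values were near 0, from −0.23 to 0.14.

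The loss of CLF in plants without BRM gave a second set of libraries that shares no sample with the first. Between the double mutant and brm-1, 842 of the 7371 genes (11.4%) were lower and 55 (0.746%) higher. Of the 1060 genes lower in clf-29, 776 (73.2%) were also lower there, 48 were kept and none was higher, and they make up 92.2% of the 842. Of the 56 higher genes 16 (28.6%) were higher there and 14 were kept. The median change of the 1060 was −1.25 in the brm-1 background and −1.45 in Col, and that of the 56 was 0.93 and 1.09.

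In the brm-1 background MIR157b changed by −2.92, AT4G23380 by −2.79 and PIN8 by −1.44, all called lower, and SVP by 1.39, called higher. The effects of CLF loss in the 2 backgrounds were also tested against each other in 1 fit. No gene differed at an adjusted p under 0.05 (limma, smallest adjusted p = 0.0828), and 543 of 7371 (7.37%) had an unadjusted p under 0.05. FLC, which changed by −0.97 in Col, was called lower in the double mutant against brm-1 (−1.71), and this difference of effects did not pass the adjusted test.

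The 250 bases upstream of the protein-coding genes were searched on both strands for AACCCTA, the core of the telobox, and for GAGAGA, a GA repeat. Both kinds of motif are known as landing sites of proteins that recruit PRC2. AACCCTA was in 12.6% of the 705 lower, 8.85% of the 4395 kept and 7.55% of the 53 higher genes. It was in 9.21% of the 5960 marked genes and in 6.56% of all 27443 genes, so kept and higher genes lay below the marked share. GAGAGA was in 18.4% of the lower, 21.3% of the kept and 24.5% of the higher genes, against 20.6% of the marked and 20.6% of all genes. Neither motif holds the other, matches of GAGAGA may overlap themselves, and a match is no evidence of binding.

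Of the named falls and the lower genes of the floral list, AT4G11400 has an AACCCTA, and GAGAGA has 3 overlapping matches in SEP4, 2 in AT5G52150 and 1 in AG. AT4G11400 and SEP4 are shown as the ones with the most matches of each motif, and their upstream sequences are given with the matches in capitals, on the plus strand at chr4:6938049-6938298 and at chr2:1128979-1129228.
AT4G11400 upstream: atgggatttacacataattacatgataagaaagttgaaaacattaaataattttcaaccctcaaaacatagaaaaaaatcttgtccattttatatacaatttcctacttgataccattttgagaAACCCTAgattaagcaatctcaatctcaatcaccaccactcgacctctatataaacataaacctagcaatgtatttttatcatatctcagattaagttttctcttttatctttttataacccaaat
SEP4 upstream: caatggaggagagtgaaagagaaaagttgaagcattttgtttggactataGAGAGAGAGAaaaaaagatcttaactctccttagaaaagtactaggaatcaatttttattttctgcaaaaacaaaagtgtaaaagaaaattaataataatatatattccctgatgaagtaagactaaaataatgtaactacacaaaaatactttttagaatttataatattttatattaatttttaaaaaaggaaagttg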

How the data were processed

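H3K27me3 ChIP was sequenced from 14-day-old seedlings. According to the submitters' processing notes and the methods, the authors mapped reads with Bowtie 0.12.7 to TAIR10, kept perfect unique matches and called domains with SICER 1.1. The deposited files list 51 bp reads, with no other values than position and strand and a constant score of 0, which was not used. Replicates were not pooled, and the Col and clf-29 ChIP libraries held 3901085 to 7277025 reads. Here further reads at an occupied position and strand were dropped, 38.8% to 52.5% of each Col or clf-29 ChIP library. The 5′ ends were shifted by 75 bp and counted per RefSeq TAIR10.1 gene, with 11045 genes under 1000 bp widened to that length. No Col or clf-29 ChIP read lay past a chromosome end of TAIR10.1 (0 reads), whose coordinates are used throughout.

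Counts per 1000000 kept reads (RPM) were multiplied by median-of-ratios factors over the marked genes. Marked genes also needed 10 ChIP reads and 5 input reads. Genes at an over-input ratio of 2.0 to 2.1 numbered 210, and 224 lay just outside at 1.9 to 2.0. limma 3.58.1 (R 4.3.3) was fitted to log2(scaled RPM + 1) of all 8 ChIP libraries, so folds of genes with few reads are understated. The labels call the replicates biological, but give no separate cultures, so p-values measure the spread of these samples. The input has no replicate. Genes that overlap others (1118 marked genes) share reads, and the mapping kept only unique matches, so near-identical copies are undercounted.

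Domains were called with a scheme modelled on SICER: 200 bp windows at a Poisson p under 0.2, gaps of up to 600 bp and an exact binomial test against the input at an adjusted p under 0.01, in libraries thinned to 2112103 reads. Widths were tested with limma on log2(called bp + 200), and are whole steps of 200 bp. The 12 falls and 12 rises named had the largest changes, at least 100 reads in each library of the higher genotype, no overlap between libraries and 1 gene per domain, and the 6 kept genes the most reads per kb in Col. The members, lists, family words and motifs were chosen with earlier results of these data known, and the family words were corrected, and the S1 family added, after counts had been seen. The other genes named, such as miRNA genes and neighbours in a domain, were chosen after their values were seen. Fits and domain calls were checked on simulated data with the same background in all libraries. Those checks therefore do not cover the lower background of the clf-29 libraries or the choice of scaling. The alternatives in the closing section changed 1 setting each. Sequences come from the RefSeq TAIR10.1 genome.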

Additional observations from a re-analysis of the deposited data

How the results depend on the processing

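The 1060 lower genes became 501 without scaling and 215 with scaling on the unmarked genes, and 728 to 1399 under the other settings. The 56 higher genes became 1421 without scaling, 3807 with scaling on the unmarked genes, 225 with the input subtracted, 208 with all reads kept, 157 and 19 with ChIP over input of 1.5 and 3 or more, 36 with 500 bp on each side, 32 with a pseudocount of 4, and 30 with membership by mean and with scaling by the sum. The kept genes became 1961 with scaling on the unmarked genes. Leaving out each replicate gave 1060 to 1081 lower, 72 to 101 higher (101 without clf-29 replicate 2, 87 without Col replicate 1) and 4662 to 4898 kept genes. With scaling on the unmarked genes the change at AG was 0.030.

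For the double mutant against brm-1 the higher genes were 210 without scaling and 50 to 102 without single replicates (102 without brm-1 replicate 1), and the lower genes 781 to 913. Among domains, 391 narrower and 301 wider became 79 and 9 where all 4 libraries were called, and leaving out each replicate gave 227 to 354 and 167 to 368 (227 and 256 narrower without clf-29 replicate 1 and 2, 189 and 167 wider without Col replicate 1 and 2). The median log2 width change of −0.07 was −0.039 with the stricter calls, −0.044 with gaps of up to 200 bp, −0.10 with full libraries, −0.095 in domains called in all 4, and −0.085 to −0.056 without single replicates. The cause of these shifts was not tested.

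The replicate numbers are shared between genotypes, but the deviations of same-numbered Col and clf-29 libraries correlated at 0.064, and over the 6 pairs of genotypes at 0.031 to 0.303, with 0.303 for brm-1 and the double mutant. With 2 numbers this is a hint only, so libraries were not taken as pairs. With the replicate block the gene calls stayed at 1060 and 56, those of the double mutant against brm-1 stayed at 842 and 55, the test between backgrounds was run without it, and 119 domains were narrower and 110 wider. With 2 libraries per genotype, widths that step by 200 bp and genes near the limits of 2-fold are the least firm values.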
